A study of Mus musculus with 6 samples.

Results

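The genes described here are 43 genes that interferons are known to induce or that serve antigen presentation by major histocompatibility complex (MHC) class I. They were read in 3 immortalized mouse embryonic fibroblast (MEF) lines of the C57BL/6 strain, each lacking several core clock genes. The 43 genes were taken by symbol from a list chosen with earlier results of these data known. Their shares beside those of all genes therefore describe the list. All 43 were found among the 27179 genes of the count tables. By role they were 3 sensors of foreign RNA, 5 transcription factors, 16 antiviral effectors, 6 genes of the ISG15 system and the TRIM and PARP families, 6 interferon-inducible GTPases and 7 genes of class I antigen presentation.

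Each line was represented by 2 libraries from separate RNA preparations of unsynchronized cells. All 3 lines lack Per1 and Per2. Cry/Per_KO cells also lack both Cry genes (Cry1 and Cry2), Per/Nr1d_KO cells both Nr1d genes (Nr1d1 and Nr1d2), and Cry/Per/Nr1d_KO cells lack all of these. No wild-type line was analysed here. The Cry/Per/Nr1d_KO line is 1 clone obtained from Cry/Per_KO cells with a mixture of lentiviruses that carried Cas9, a guide RNA against Nr1d1 or Nr1d2 and puromycin resistance, and the Per/Nr1d_KO line had been made earlier with the same guides. No second clone of any genotype was sequenced, so a difference between genotypes and a difference between lines cannot be told apart. For the Cry/Per_KO and Cry/Per/Nr1d_KO libraries the deposited names are exchanged relative to the genotype labels. The genotype labels are followed in grouping, and each of these pairs is named here only as it is labelled, because RNA of the clock genes goes against these 2 labels. Cry1 stood at 5323 and 5478 normalized counts in the pair labelled Cry/Per_KO and at 1699 and 1724 in the pair labelled Cry/Per/Nr1d_KO, and Nr1d1 at 9337 and 9248.5 and at 3158 and 3146. Nr1d2, Per1 and Per2 were also higher in the pair labelled Cry/Per_KO. The study describes all of these RNAs as lower in Cry/Per_KO than in Cry/Per/Nr1d_KO, so they fit the deposited names and not the labels, and the numbers of genes called at the study's own criteria fit the deposited names too. With the names exchanged, each library's values stay as they are, every sign between these pairs turns, and the comparison of Per/Nr1d_KO that isolates CRY becomes the one with the pair labelled Cry/Per_KO.

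The 6 libraries held between 53764390 and 85927236 counts, and libraries of the same line correlated across genes at r between 0.997 and 0.998. RNA of all 6 deleted genes was still counted in every library, from 1004 normalized counts (Per2 in Per/Nr1d_KO) to 9337 (Nr1d1 in a library labelled Cry/Per_KO). Cry1 and Cry2 RNA was lowest in Per/Nr1d_KO, the line labelled as having both genes, at 1535 and 1592 and at 1106.5 and 1169, against 1699 or more and 6476 or more in the other libraries. Of 10 fibroblast markers, Col1a1, Col1a2, Fn1 and Vim were counted at 83457 normalized counts or more in every library, whereas Thy1 did not exceed 6.21 and Lum 9.77. The summed fibroblast markers ranged from 837100 to 933800 in the other 4 libraries and from 1704000 to 1723000 in Per/Nr1d_KO, where Col1a1, Col1a2, Col3a1 and Fn1 were called higher and Pdgfra, Pdgfrb and Vim lower than in the Cry/Per/Nr1d_KO-labelled pair. Of 10 leukocyte markers, Tyrobp and Cd3e were at 0 in all 6 libraries and Ptprc (CD45) did not exceed 3.95. The summed leukocyte markers ranged from 212 to 214 in the pair labelled Cry/Per/Nr1d_KO, 276 to 292 in the pair labelled Cry/Per_KO and 328 to 354 in Per/Nr1d_KO, most of it Cd68 in Per/Nr1d_KO. Summed epithelial markers (6 genes) ranged from 35.5 to 64.4, from 17.7 to 24.5 and from 137 to 141 in the same order, most of it Cdh1 in Per/Nr1d_KO (100.1 and 110.5), with Krt8 at most 6.34. Summed endothelial markers (4 genes) ranged from 125 to 130.5, from 49.0 to 57.9 and from 113 to 138. The part of these marker levels in the results was not tested. These are bulk libraries, in which more cells expressing a gene and more RNA per cell cannot be told apart.

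Type I interferons bind the receptor IFNAR1 and IFNAR2, whose kinases JAK1 and TYK2 phosphorylate STAT proteins, STAT2 among them. With IRF9 these form the complex ISGF3, which binds the interferon-stimulated response element (ISRE) in the promoters of its target genes. Interferon gamma acts mainly through another element, the gamma-activated site (GAS). Among the targets are the RNA sensors, ISGF3 itself, proteins that block viral replication, and the machinery that cuts peptides and loads them on class I molecules, so that the system can amplify its own expression. Fibroblasts express the class I pathway at a low level at rest and respond to both kinds of interferon.

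Promoter sequences are shown first, because the response element is what many of these genes have in common. RefSeq promoter windows of the GRCm38.p6 build, 250 bases before to 50 bases after a gene's start, were at hand for 32 of the 43 members. The core ISRE letters (GAAA, any 2 bases, GAAA), searched on both strands and allowing overlapping matches, were found in windows of 17 of these 32 members (53.1%) and in 3.99% of all 27025 genes with a window. GAS letters TTCNNNGAA, which read the same on both strands, were found in 9 of the 32 members (28.1%) and in 9.55% of all genes. In Bst2 a match of one motif overlapped a match of the other. The members were listed as interferon-stimulated genes, so these shares describe the list and were not tested. The stretches below, 1 or more for each of 5 roles, are printed 5′ to 3′ in the direction of the gene with the ISRE letters in capitals (which read TTTC, 2 bases, TTTC where the match lies on the other strand).
Stat2: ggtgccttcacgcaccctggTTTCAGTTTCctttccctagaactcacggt
Ifit1: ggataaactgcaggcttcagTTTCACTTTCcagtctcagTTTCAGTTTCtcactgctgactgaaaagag
Oas1a: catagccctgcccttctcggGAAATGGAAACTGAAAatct
Rsad2: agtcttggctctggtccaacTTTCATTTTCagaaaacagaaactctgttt
Bst2: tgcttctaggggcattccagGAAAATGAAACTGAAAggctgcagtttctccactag
Isg15: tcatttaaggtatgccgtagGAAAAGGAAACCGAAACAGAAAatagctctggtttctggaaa
Gbp3: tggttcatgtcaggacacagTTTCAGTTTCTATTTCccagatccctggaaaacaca
Irgm1: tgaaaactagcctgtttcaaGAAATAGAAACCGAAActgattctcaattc
B2m: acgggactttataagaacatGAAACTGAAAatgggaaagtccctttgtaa
The Isg15 stretch is chr4:156200855-156200916 on the minus strand, and its 3 overlapping matches begin 78 to 66 bases before the start. The pair in Ifit1 (chr19:34640765-34640833 on the plus strand) begins 104 and 85 bases before the start, and the pair in Oas1a (chr5:120907526-120907565 on the minus strand) 20 and 14 bases before it. Gbp3 (chr3:142559979-142560034 on the plus strand) and Irgm1 (chr11:48871421-48871470 on the minus strand) also hold pairs close to the start, at 45 and 39 bases and at 30 and 24 bases. Bst2 (chr8:71537567-71537622 on the minus strand) holds a pair 130 and 124 bases before the start. Single matches lie 222 bases before the start in Stat2 (chr10:128270256-128270305 on the plus strand), 120 bases in Rsad2 (chr12:26456543-26456592 on the minus strand) and 139 bases in B2m (chr2:122147528-122147577 on the plus strand). Neither motif was found in the windows of 11 members, among them Irf7, Irf9, Oasl2, Ifi44, Psmb9 and Tap1, which says only that these letters are not in these windows.

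Per/Nr1d_KO cells, the only line with intact Cry1 and Cry2, stood apart from both other lines in nearly all members. The comparison with Cry/Per/Nr1d_KO addresses what CRY proteins change when PER and NR1D are absent, and the one with Cry/Per_KO differs in both Cry and Nr1d. The pair labelled Cry/Per/Nr1d_KO is the first of these by its label, and the pair labelled Cry/Per_KO is so by the deposited names that the clock gene RNA fits. Against the pair labelled Cry/Per/Nr1d_KO, 41 of the 42 members tested were called higher and none lower. Of the 11934 genes tested, 11.3% were called higher, 9.35% lower and 20.7% in either direction. Against the pair labelled Cry/Per_KO, 39 of 42 were called higher and none lower, where 15.2% of all genes tested were called higher, 13.8% lower and 29.0% in either direction. A gene was called where edgeR's quasi-likelihood test gave an adjusted p under 0.05 and the log2 fold change exceeded the study's limit of 0.81 in size. The median log2 fold change of the members was 4.42 in the first comparison and 3.89 in the second, against 0.01 and 0.03 over all genes tested. The comparisons share the Per/Nr1d_KO libraries and do not count as separate evidence.

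In each of the 43 members both Per/Nr1d_KO libraries lay above all 4 others, an order seen in 32.7% of the genes tested. Groups that do not overlap were common, with 87.1% of genes tested against the pair labelled Cry/Per/Nr1d_KO (44.1% with Per/Nr1d_KO higher) and 90.4% against the pair labelled Cry/Per_KO (47.2% with Per/Nr1d_KO higher). Only genes averaging 100 normalized counts or more over the 6 libraries were tested, and 8 members passed this filter only through their level in Per/Nr1d_KO (Oas1a, Oas2, Oasl1, Mx2, Rsad2, Ifi44, Iigp1 and Psmb9). Their tests against Per/Nr1d_KO are not independent of the filter. Among the 34 members with a mean of at least 100 in the 4 other libraries, 33 were called higher against the pair labelled Cry/Per/Nr1d_KO and 31 against the pair labelled Cry/Per_KO, where 9.38% and 13.3% of the genes that meet the same condition were called higher. The median log2 fold changes of these 34 members were 4.21 and 2.94. Mx1, with a mean of 80.1, was not tested. Its values were 16 and 25.5 in the pair labelled Cry/Per/Nr1d_KO, 4.45 and 4.91 in the pair labelled Cry/Per_KO and 226 and 204 in Per/Nr1d_KO.

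**Figure D1:**
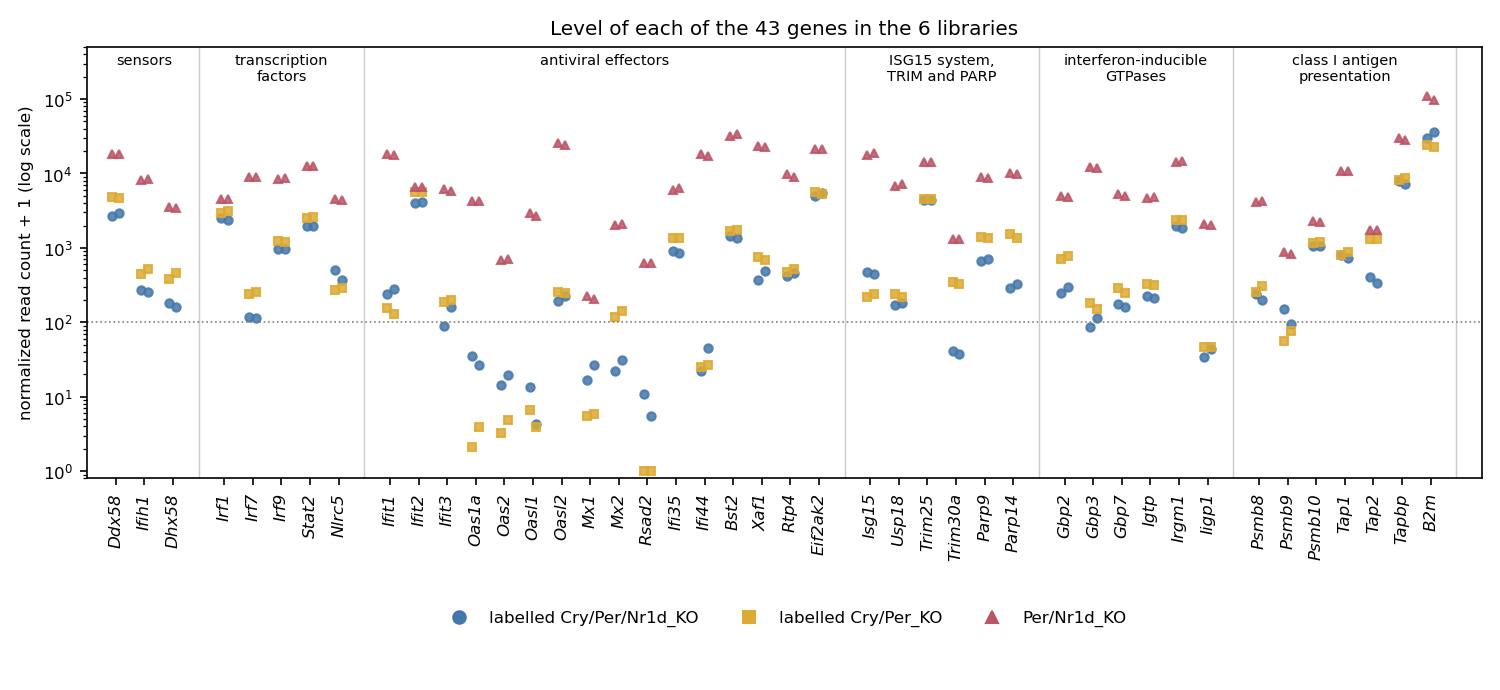
Normalized read count plus 1 on a log axis for the 43 members, grouped by role, with 1 point per library, 2 per line (circles, libraries labelled Cry/Per/Nr1d_KO, squares, libraries labelled Cry/Per_KO, triangles, Per/Nr1d_KO). The dotted line marks 100 normalized counts, and the triangles lie above the other points for every gene, least so for Ifit2 and Tap2.

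The 3 sensors are helicases that recognize viral RNA in the cytoplasm. Values are normalized counts, given from here on for the pair labelled Cry/Per/Nr1d_KO (the first pair), then the pair labelled Cry/Per_KO (the second), then Per/Nr1d_KO. Ddx58 (RIG-I) stood at 2648 and 2944 in the pair labelled Cry/Per/Nr1d_KO, 4888 and 4652 in the pair labelled Cry/Per_KO and 18451 and 18059 in Per/Nr1d_KO. Ifih1 (MDA5, which detects long double-stranded RNA) was lower in the first 4 libraries, with 267 and 254, then 452 and 519, and then 8045 and 8340.1. Dhx58 (LGP2, a regulator of both others) counted 178 and 159.9, then 378 and 457, and then 3511 and 3473. No library of the first 2 pairs reached the Per/Nr1d_KO libraries for any sensor. Per/Nr1d_KO exceeded the pair labelled Cry/Per/Nr1d_KO 6.53-fold in Ddx58, 31.4-fold in Ifih1 and 20.6-fold in Dhx58. The log2 fold change of Ifih1 was 4.97 ± 0.074 (SE), with an adjusted p of 2.63e-17 by edgeR's quasi-likelihood test.

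All 5 transcription factors were called higher in Per/Nr1d_KO than in the pair labelled Cry/Per/Nr1d_KO. Stat2 and Irf9 encode parts of ISGF3. Stat2 counted 1987 and 1999, then 2548 and 2563, and then 12765 and 12445. Irf9 counted 973 and 981, then 1253 and 1201, and then 8529 and 8676. Per/Nr1d_KO was 6.33-fold and 8.81-fold above the first pair and 4.93-fold and 7.01-fold above the second. Irf7, the factor that drives further interferon production, had the largest difference of the 5, with 117 and 113, then 243 and 253, and then 8944 and 9034. This was a 78-fold and a 36.2-fold difference, with log2 fold changes of 6.28 ± 0.072 (SE) and 5.18 ± 0.065 (SE) and adjusted p of 2.22e-18 and 3.67e-18 by edgeR's quasi-likelihood test. Nlrc5, the transactivator of class I genes, had 504 and 369.8, then 267 and 293, and then 4473 and 4404. Irf1, a factor induced early by interferon gamma, had 2496 and 2377, then 2978 and 3144, and then 4569 and 4497 and was the least changed of the factors. Its log2 fold change was 0.89 against the pair labelled Cry/Per/Nr1d_KO, past the limit, and 0.57 against the pair labelled Cry/Per_KO, under the limit, although the groups did not overlap.

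The antiviral effectors ranged widely, from 0.68 (Ifit2) to 9.12 (Ifi44) in log2 fold change against the pair labelled Cry/Per/Nr1d_KO, although 6 of the 15 tested had passed the filter only through Per/Nr1d_KO. Ifi44, an interferon-induced cytoplasmic protein, was nearly silent in 4 libraries, with 21.3 and 44.4 in the pair labelled Cry/Per/Nr1d_KO, 24.5 and 25.5 in the pair labelled Cry/Per_KO and 18067 and 17215 in Per/Nr1d_KO. Per/Nr1d_KO was 537-fold above the first pair, 828-fold without replicate 2 of that pair and 397-fold without its replicate 1. The members that belong to the oligoadenylate synthetase family, whose products activate the nuclease RNase L, were also far higher in Per/Nr1d_KO. Oas1a counted 34.6 and 25.5, then 1.11 and 2.95, and then 4235 and 4319. Oas2 counted 13.3 and 18.9, then 2.23 and 3.93, and then 689.5 and 709. Both were close to 0 in the pair labelled Cry/Per_KO. Oasl1, a family member that restrains IRF7 translation, counted 12.4 and 3.33, then 5.56 and 2.95, and then 2939 and 2643. Oasl2 started higher, with 195 and 228, then 254 and 249, and then 25809 and 24082. The excess over the pair labelled Cry/Per/Nr1d_KO was 142-fold for Oas1a, 43.5-fold for Oas2 and 118-fold for Oasl2. For Oasl1 it was 329-fold, with an exact 95% counting interval of 205 to 565. The Oasl1 excess was 838-fold without replicate 1 labelled Cry/Per/Nr1d_KO and 225-fold without replicate 2, so that 1 library sets its size. Oas1a shares 57.6% of its 50-base stretches with Oas1g or Oas1b, so that its reads may be split among these genes.

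Rsad2 (viperin, which makes a chain-terminating nucleotide) counted 9.77 and 4.44, then 0 and 0, and then 619.8 and 619, and was at 0 in both libraries labelled Cry/Per_KO. Against this pair Per/Nr1d_KO was at least 197-fold higher, taking 3 counts per library as the floor. It was 87.2-fold above the other pair, 139-fold without replicate 1 of that pair and 63.4-fold without its replicate 2. Mx2, a dynamin-like antiviral GTPase, counted 21.3 and 30, then 117 and 140.4, and then 2004 and 2062. Its neighbour Mx1, which is often defective in laboratory strains, reached 226. With no filter on low counts, 42 of the 43 members were called higher against the pair labelled Cry/Per/Nr1d_KO (11.0% of genes with any count) and 40 against the pair labelled Cry/Per_KO (13.8%), Mx1 among them in both. Between the other lines 9 were then higher (8.43%) and 7 lower (10.3%).

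The 3 Ifit genes lie together on chromosome 19 and encode proteins that bind foreign RNA, yet they differed from each other. Ifit1 had 239.7 and 279, then 152 and 127, and then 18200 and 17667. Ifit3 had 89.7 and 159, then 186 and 201, and then 6107 and 5817, of whose sequence 51.2% of 50-base stretches is shared with Ifit3b. Ifit2 had 3992 and 4180.2 in the pair labelled Cry/Per/Nr1d_KO, 5681 and 5598 in the pair labelled Cry/Per_KO and 6599 and 6495 in Per/Nr1d_KO. Per/Nr1d_KO exceeded the pair labelled Cry/Per/Nr1d_KO 69.2-fold in Ifit1 and 48-fold in Ifit3 and only 1.6-fold in Ifit2, the 1 tested member that was called in neither comparison. The Ifit2 libraries of the lines did not overlap, and its log2 fold changes were 0.68 ± 0.046 (SE) and 0.22 ± 0.046 (SE) with adjusted p of 2.56e-09 and 0.000479 by edgeR's quasi-likelihood test. Ifit2 was the member highest in the 4 other libraries among the antiviral effectors after Bst2 when levels are divided by exon length, at 15.8 and 21.8 RPKM (reads per kilobase of exon, scaled to library size), against 1.48 and 0.798 for Ifit1.

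Bst2 (tetherin, which holds budding virions at the membrane) reached the highest level per length of all members but B2m in Per/Nr1d_KO, 554 RPKM. In normalized counts it had 1452 and 1359, then 1691 and 1757, and then 31998 and 33871. Xaf1, a promoter of apoptosis, had 366 and 489.8, then 751 and 692, and then 23691 and 22442. Rtp4, a receptor transporter that also restricts viruses, had 424 and 458, then 469 and 516, and then 9816 and 8923. These amounted to 23.4-fold, 53.9-fold and 21.3-fold differences from the pair labelled Cry/Per/Nr1d_KO. Ifi35 and Eif2ak2 differed less. Ifi35 had 899 and 853, then 1358 and 1364, and then 5983 and 6294. Eif2ak2 (PKR, the kinase that stops translation on double-stranded RNA) had 4912 and 5418, then 5655 and 5269, and then 21209 and 21545, a 4.14-fold and a 3.91-fold difference.

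**Figure D2:**
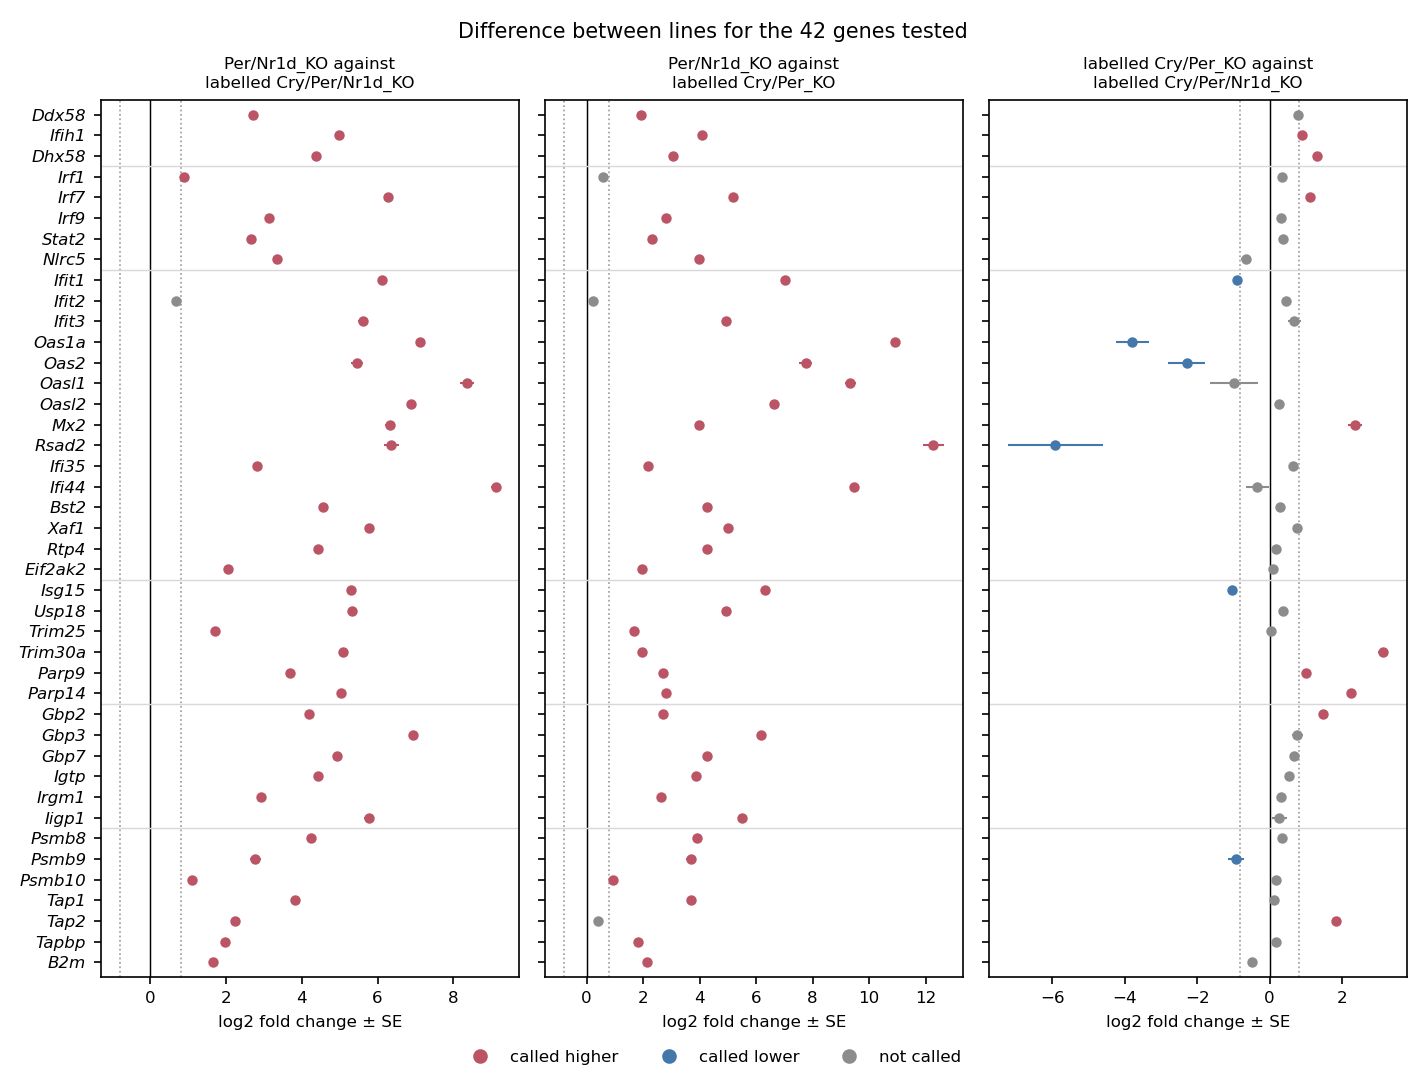
Log2 fold change ± SE of the 42 members tested in the 3 comparisons, with red for called higher, blue for called lower and grey for not called, and dotted lines at the fold limit. Nearly all points lie right of the dotted line in the 2 comparisons with Per/Nr1d_KO and on both sides of 0 in the third, where the fitted value of Rsad2 depends on a prior count because a group is at 0.

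Isg15 encodes a ubiquitin-like modifier that is attached to newly made proteins. It counted 480.3 and 442 in the pair labelled Cry/Per/Nr1d_KO, 216 and 236 in the pair labelled Cry/Per_KO and 17697 and 18650 in Per/Nr1d_KO. The excess in Per/Nr1d_KO was 39.4-fold and 80.5-fold, with log2 fold changes of 5.30 ± 0.063 (SE) and 6.33 ± 0.069 (SE). Usp18, the protease that removes ISG15 and dampens receptor signalling, had 168 and 183, then 237 and 219.9, and then 6786 and 7119. Trim25, the ligase that activates RIG-I, had 4352 and 4333, then 4469.7 and 4524, and then 14166 and 14278 and the smallest fold of these 6 genes against the first pair (3.27). The fold of Usp18 against the first pair was 39.6, near that of Isg15, and against the second it was 30.4, well below it.

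Trim30a, a mouse TRIM protein that restrains inflammatory signalling, had 40 and 36.6, then 346 and 329.9, and then 1322 and 1313. Parp9 and Parp14 are ADP-ribosyltransferase family members linked to interferon signalling. Parp9 had 669 and 703, then 1388 and 1337, and then 8980.2 and 8799. Parp14 had 284 and 329.8, then 1538 and 1374, and then 10213 and 9947. For these 3 genes the pair labelled Cry/Per_KO took an intermediate place, with both values above the pair labelled Cry/Per/Nr1d_KO and below Per/Nr1d_KO.

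The interferon-inducible GTPases act on membranes around intracellular pathogens, and all 6 were called higher in Per/Nr1d_KO in both comparisons. Gbp2, Gbp3 and Gbp7 lie in one cluster on chromosome 3. Gbp3 counted 84.3 and 112, then 184 and 148, and then 12176 and 11749, the largest difference of the 6 at 122-fold over the first pair. Gbp2 counted 246 and 297, then 711 and 778, and then 5036 and 4767. Gbp7 counted 176 and 159, then 287 and 246, and then 5266 and 5044. Within the cluster the excess over the first pair ran from 18.1-fold for Gbp2 to 122-fold for Gbp3. Of the immunity-related GTPases, Iigp1 counted 33.7 and 42.2, then 45.6 and 45.2, and then 2065 and 2037. Igtp counted 228 and 214, then 324 and 318, and then 4735 and 4755, with 11.8% of its 50-base stretches shared with Irgm2. Irgm1, which regulates the others, counted 1938 and 1847, then 2337 and 2343, and then 14131 and 14650 and differed least, by 7.6-fold and 6.15-fold.

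All 7 class I genes were called higher in Per/Nr1d_KO than in the pair labelled Cry/Per/Nr1d_KO and 6 of 7 than in the pair labelled Cry/Per_KO, with median log2 fold changes of 2.23 and 2.14. The medians of the 15 antiviral effectors tested were 5.77 and 5.00, or 4.55 and 4.26 over the 9 that reach a mean of 100 without Per/Nr1d_KO, against 2.10 and 1.97 over 6 such class I genes. The difference between these roles was not tested. B2m, the light chain of every class I molecule, was the most abundant member in every line, with 29815 and 36093 in the pair labelled Cry/Per/Nr1d_KO, 24324 and 22401 in the pair labelled Cry/Per_KO and 108360 and 97557 in Per/Nr1d_KO. The difference was 3.12-fold (log2 fold change 1.64 ± 0.076 (SE)) and 4.41-fold (2.14 ± 0.077 (SE)), and adjusted p by edgeR's quasi-likelihood test were 2.11e-11 and 8.07e-13. Tapbp (tapasin, which bridges class I molecules to the peptide transporter) counted 7826 and 7179.8, then 8070.2 and 8784, and then 30274 and 28517.

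Tap1 and Tap2 encode the chains of the peptide transporter. Tap1 counted 804 and 732, then 810.2 and 879, and then 10887 and 10938, a 14.2-fold and a 12.9-fold difference. Tap2 counted 404 and 334, then 1322 and 1328, and then 1731 and 1756, and differed 4.72-fold from the pair labelled Cry/Per/Nr1d_KO and only 1.32-fold from the pair labelled Cry/Per_KO, where it was not called. The transporter chains had unlike patterns, with the pair labelled Cry/Per_KO near the low end for Tap1 and near the high end for Tap2. Exons of other genes on the opposite strand cover 18.5% of the Tap2 exons, 24.9% of Tapbp, 16.8% of Ifi35 and 14.7% of Psmb8, and whether counting used strand is not given in the sources used here.

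Psmb8, Psmb9 and Psmb10 encode the catalytic subunits of the immunoproteasome, which replace constitutive subunits and favour peptides that fit class I molecules. Psmb8 counted 241 and 201, then 254 and 309, and then 4100.4 and 4296. Psmb9 counted 152 and 93.3, then 54.5 and 75.6, and then 871 and 836. Psmb10 counted 1056 and 1052, then 1161 and 1213, and then 2300.5 and 2237, and was the least changed class I gene against the first pair at 2.15-fold, compared with 19-fold for Psmb8 and 6.96-fold for Psmb9. Psmb9, Tap1, Psmb8 and Tap2 lie in this order within 34292 bases of chromosome 17 (chr17:34182030-34216321, GRCm38.p6), and 225 bases separate Psmb9 from Tap1, which runs in the opposite direction, by their RefSeq bounds. In the GENCODE annotation their exons overlap, over 5.79% of the Psmb9 and 3.87% of the Tap1 exonic bases.

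Set against the constitutive subunits they replace, per kilobase of exon, the inducible subunits also stood higher in Per/Nr1d_KO. The ratio of Psmb8 to Psmb5 was 0.0461 and 0.0430 in the pair labelled Cry/Per/Nr1d_KO, 0.0687 and 0.0802 in the pair labelled Cry/Per_KO and 0.549 and 0.515 in Per/Nr1d_KO. Psmb9 to Psmb6 gave ratios of 0.00740 and 0.00513, then 0.00401 and 0.00552, and then 0.0443 and 0.0391. Psmb10 to Psmb7 gave 0.164 and 0.167, then 0.255 and 0.257, and then 0.397 and 0.360. The Per/Nr1d_KO libraries were highest in all 3 ratios, and no ratio reached 1. None of the 7 constitutive beta subunits was called against the pair labelled Cry/Per/Nr1d_KO, and Psmb4 and Psmb5 were called higher against the pair labelled Cry/Per_KO.

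**Figure D3:**
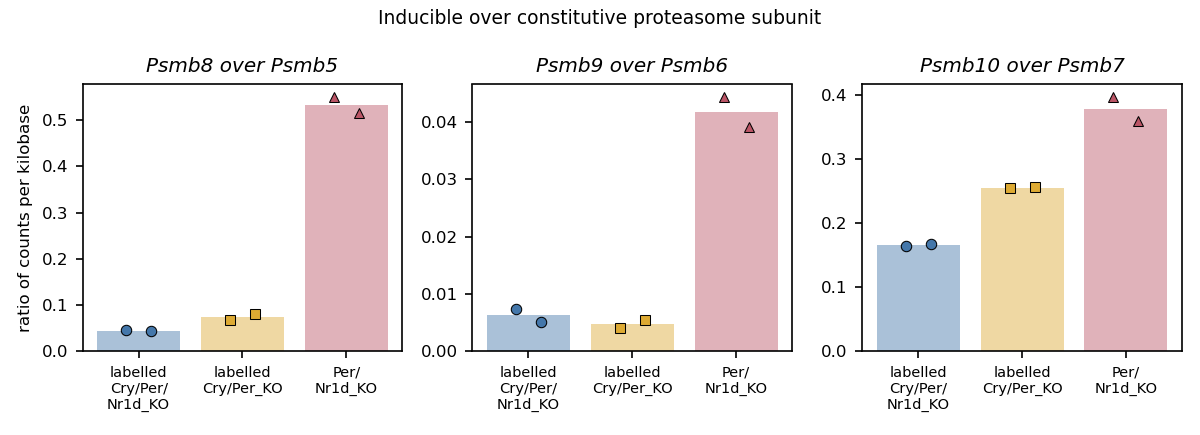
Ratio of exon-length-scaled counts of each inducible proteasome subunit to the constitutive subunit it replaces, with 1 point per library and bars at the mean of the 2 libraries of a line. The axes differ in range, and Per/Nr1d_KO is highest in each panel, from about 0.04 for Psmb9 over Psmb6 to about 0.53 for Psmb8 over Psmb5.

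Members were grouped by RPKM in the pair labelled Cry/Per_KO, which does not enter the comparison of Per/Nr1d_KO with the pair labelled Cry/Per/Nr1d_KO, and the lowest 14 of the 42 members had a median log2 fold change of 6.22 (2.77 to 9.12) in that comparison. Of these 14, 8 had passed the filter only through their high level in Per/Nr1d_KO, which fixes part of their difference, and the other 6 had a median of 5.55 (3.33 to 6.95). The middle 14 had 4.42 (3.14 to 6.28) and the highest 14 had 2.14 (0.68 to 5.30). Within the last group Bst2 (29.0 RPKM) and Isg15, the lowest of it at 4.53 RPKM, differed 23.4-fold and 39.4-fold.

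**Figure D4:**
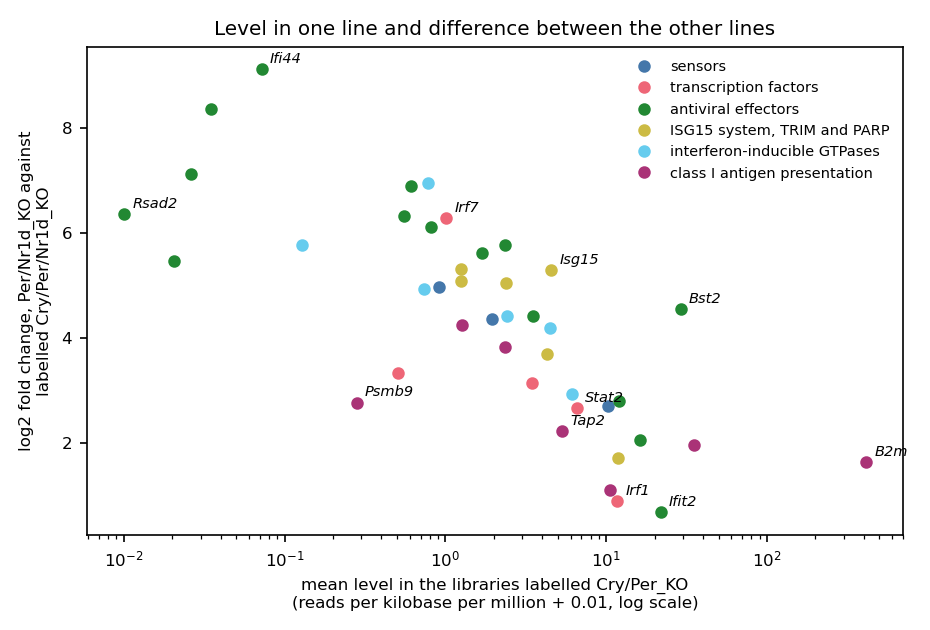
Log2 fold change of Per/Nr1d_KO against the pair labelled Cry/Per/Nr1d_KO for the 42 members tested, by mean RPKM plus 0.01 in the pair labelled Cry/Per_KO on a log axis, coloured by role. Points are lower at the right, where no member was admitted through Per/Nr1d_KO alone, with Ifi44 at 9.12 and Ifit2 at 0.68 as the extremes.

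The Cry/Per_KO-labelled and Cry/Per/Nr1d_KO-labelled pairs, whose comparison addresses what NR1D proteins change when CRY and PER are absent, differed in both directions. Directions are given for the pair labelled Cry/Per_KO, and all of them turn under the deposited names, which the clock gene RNA fits. Of the 42 members tested, 9 were called higher and 6 lower in the pair labelled Cry/Per_KO, where 7.86% of all genes tested were called higher and 8.95% lower (16.8% in all). The median log2 fold change was 0.33, against 0.00 over all genes tested. The members called higher were Ifih1, Dhx58, Irf7, Mx2, Trim30a, Parp9, Parp14, Gbp2 and Tap2. Trim30a differed most, 8.83-fold (log2 fold change 3.13 ± 0.14 (SE), adjusted p = 2.88e-11 by edgeR's quasi-likelihood test), followed by Mx2 at 5.02-fold, Parp14 at 4.74-fold and Tap2 at 3.59-fold. Ifih1, Dhx58, Irf7, Parp9 and Gbp2 lay between 1.86-fold and 2.75-fold.

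The members called lower in the pair labelled Cry/Per_KO were Ifit1, Oas1a, Oas2, Rsad2, Isg15 and Psmb9. Isg15 was 2.04-fold lower (log2 fold change -1.03 ± 0.087 (SE), adjusted p = 4.25e-08 by edgeR's quasi-likelihood test), and Ifit1 1.86-fold lower. Oas1a, Oas2 and Rsad2 had at most 34.6 normalized counts in these 4 libraries, and like Psmb9 and Mx2 they entered the test only because of Per/Nr1d_KO. From summed counts, the level in the pair labelled Cry/Per_KO was 0.0682 of that in the other pair for Oas1a (exact 95% counting interval 0.018 to 0.184) and 0.198 for Oas2 (0.0678 to 0.481). For Rsad2 it was at least 2.26-fold lower. Among the 34 members with a mean of at least 100 in these 4 libraries, 8 were called higher and 2 lower, where 7.75% of genes that meet this condition were called higher and 7.93% lower.

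Members of one role went opposite ways in this comparison. Mx2 was higher and the untested Mx1 had lower counts, and among neighbours on chromosome 17 Tap2 was higher and Psmb9 lower. Isg15 was lower, whereas the log2 fold change of its protease Usp18 was 0.38, not called. The ISGF3 subunits Stat2 and Irf9 had 0.36 and 0.33, both under the fold limit. The groups did not overlap in 40 of the 43 members, 31 with the pair labelled Cry/Per_KO higher and 9 lower, and overlapped in Oasl1, Ifi44 and Eif2ak2. Of all genes tested, 86.4% did not overlap, so the count of 40 is near the background. The pair labelled Cry/Per_KO was the lower in 43.3% of all genes tested and in 20.9% of the members.

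Several calls of this comparison rested on single libraries. Psmb9 was called lower with all libraries (-0.93) and fell short without replicate 1 labelled Cry/Per/Nr1d_KO (-0.51) or replicate 1 labelled Cry/Per_KO (-0.72). Ifit1 fell short of the fold limit without replicate 2 of either line (-0.79 and -0.76), and Ifih1 without replicate 2 labelled Cry/Per_KO (0.79). Without replicate 2 labelled Cry/Per/Nr1d_KO, the count rose to 20, adding Ddx58 (0.85), Ifit3 (1.11), Xaf1 (0.98) and Gbp3 (0.97) as higher and Nlrc5 (-0.85) and Oasl1 (-1.55) as lower. Ifi44 became called lower without replicate 1 labelled Cry/Per/Nr1d_KO (-0.82). Without replicate 2 labelled Cry/Per_KO, Ddx58 (0.81), Xaf1 (0.83) and Gbp3 (0.92) were called higher. The calls of the comparisons with Per/Nr1d_KO did not change when any single library was left out.

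The wider pathway was read in lists of other genes, which were also written with earlier results of these data known. None of 20 interferon genes was high enough to be tested, and 14 of them, Ifng included, were at 0 in all 6 libraries. The summed counts of the 20 were 7.10 to 8.89 in the pair labelled Cry/Per/Nr1d_KO, 8.84 to 15.6 in the pair labelled Cry/Per_KO and 23.7 to 25.4 in Per/Nr1d_KO, where 3 counts of a library correspond to 2.37 to 3.80 normalized counts. Ifnb1 had 0.888 and 4.44, then 1.11 and 0.982, and then 6.34 and 7.89. In summed counts Ifnb1 in Per/Nr1d_KO was 2.96 times that in the pair labelled Cry/Per/Nr1d_KO (exact 95% counting interval 1.02 to 10.4) and 6.99 times that in the pair labelled Cry/Per_KO (1.63 to 63). Ifna4 was counted only in Per/Nr1d_KO, at 16.5 and 6.31. Ifnz went the other way, at 0.739 times the pair labelled Cry/Per/Nr1d_KO (0.211 to 2.43). Against the pair labelled Cry/Per_KO it was 0.35 times (0.112 to 0.94). Ifne was 3.94 times (0.787 to 38.1) and 2.49 times (0.597 to 14.6) these pairs. Ifnab was counted only in the pair labelled Cry/Per_KO, with 1 count in each library.

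Receptors and kinases differed little beside the members. Ifnar1 had 7132 and 7159, then 7916 and 8179, and then 7771 and 7536 and was not called in any comparison, nor were Ifnar2 (0.50 against the first pair), Ifngr1 and Ifngr2. Ifnlr1, the receptor chain for lambda interferons, was called lower in the pair labelled Cry/Per_KO (-0.85) and higher in Per/Nr1d_KO than there (1.64). Jak1 was not called, with 23989 and 24219, then 22997 and 22060, and then 23520 and 23696. Tyk2 was called lower in Per/Nr1d_KO than in the pair labelled Cry/Per_KO (-0.85), as was Pias1, an inhibitor of STAT signalling (-1.27).

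Socs1, a feedback inhibitor of the kinases, was higher in Per/Nr1d_KO with log2 fold changes of 0.98 and 1.12. Of 10 transducers listed 9 were tested. Socs1 was the 1 called higher in either comparison with Per/Nr1d_KO, none was called lower against the pair labelled Cry/Per/Nr1d_KO, and Tyk2 and Pias1 were the 2 called lower against the pair labelled Cry/Per_KO. Irf5 was the 1 of 3 tested further interferon regulatory factors called (2.28 and 1.71).

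In the upstream sensing pathway 5 of 12 tested genes were called higher in Per/Nr1d_KO than in the pair labelled Cry/Per/Nr1d_KO, or 4 of 11 without Zbp1, which passed the filter only through Per/Nr1d_KO. Against the pair labelled Cry/Per_KO 4 of 12 were called higher, or 3 of 11 without Zbp1. Of all genes tested, 11.3% and 15.2% were called higher in these comparisons. Zbp1, a sensor of left-handed nucleic acid, had 23.1 and 15.5, then 2.23 and 5.89, and then 2810 and 2575. Tmem173 (STING, the adaptor of DNA sensing) had 756 and 709, then 472 and 435, and then 4431 and 4353. Tlr3 (1.93) and Ikbke (1.48) were also higher in the pair labelled Cry/Per_KO than in the pair labelled Cry/Per/Nr1d_KO (0.91 and 0.96). Mb21d1 (cGAS), Mavs and Tbk1 were not called in any comparison.

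Of 48 other interferon-stimulated genes 36 were tested, and 32 were called higher in Per/Nr1d_KO than in the pair labelled Cry/Per/Nr1d_KO and 29 than in the pair labelled Cry/Per_KO. Their median log2 fold changes were 2.99 and 2.68. Over all genes tested, the shares called higher in these comparisons were 11.3% and 15.2%. Of the 36, 10 had passed the filter only through Per/Nr1d_KO. Among the other 26, 22 and 19 were called higher, with medians of 2.63 and 2.34. Over all tested genes not admitted through Per/Nr1d_KO alone, 9.38% and 13.3% were called higher. The largest in the first comparison, Oas1g, Phf11d, Oas3 and Ddx60, were all among the 10, with Oas3 at 7.1 and 10, then 15.6 and 21.6, and then 1953 and 1863. Oas1g, which shares sequence with Oas1a, had 1.78 and 1.11, then 0 and 0, and then 1047 and 1054. The 1 tested gene called lower was Ifi47 against the pair labelled Cry/Per_KO, with 225 and 254, then 707 and 801, and then 417 and 443. Of the untested genes, Gbp4 (0.0896-fold, counting interval 0.0102 to 0.365), Gbp9 (0.266-fold) and Ifitm1 (0.535-fold) were below the first pair in Per/Nr1d_KO. They were not below the second pair, whereas Ifit1bl1 was (0.417-fold). Other untested genes were above the first pair, Gbp5, Gbp6, Tgtp1, Sp100 and Epsti1 among them. Between the Cry/Per_KO-labelled and Cry/Per/Nr1d_KO-labelled pairs this list was again divided, with 14 called higher and 4 lower (Isg20, Ly6e, Ifi27l2a and Cmpk2). Of all genes tested, 7.86% were called higher and 8.95% lower in this comparison. Among the 26 genes not admitted through Per/Nr1d_KO alone, 9 were called higher and 2 lower. The shares over all genes that meet this condition were 7.75% and 7.93%.

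The heavy chains that pair with B2m are closely related in sequence, so reads may be assigned to the wrong gene. H2-K1 had 6134 and 5938, then 3284 and 3360.1, and then 42736 and 43905. H2-D1 had 4543 and 4356, then 4589 and 4942, and then 29895 and 31502. H2-K1 was 7.18-fold and H2-D1 6.9-fold above the pair labelled Cry/Per/Nr1d_KO, larger folds than that of B2m. H2-K1 was also called lower in the pair labelled Cry/Per_KO than in the pair labelled Cry/Per/Nr1d_KO (-0.86), as was H2-Q6 (-5.08), whereas H2-M3 was higher (1.80). Of 10 heavy chain and related genes tested, 7 were called higher and Mr1 lower in Per/Nr1d_KO than in the pair labelled Cry/Per/Nr1d_KO, and 8 higher and 2 lower (Mr1 and H2-M3) than in the pair labelled Cry/Per_KO. Over all genes tested, 11.3% were called higher and 9.35% lower in the first of these comparisons, and 15.2% and 13.8% in the second. Without Cd1d1, which passed the filter only through Per/Nr1d_KO, 6 and 7 of 9 were called higher. The median log2 fold change of these 9 was 1.57 in the first of these comparisons. Over all tested genes not admitted through Per/Nr1d_KO alone, 9.38% and 13.3% were called higher. Of 7 loading and trimming partners, Psme1 (1.57), Psme2 (1.76) and Erap1 (1.15) were called higher in Per/Nr1d_KO than in the pair labelled Cry/Per/Nr1d_KO, and the chaperones Calr, Canx and Pdia3 were not called. Of 7 markers of class II antigen-presenting cells, 2 were tested. Cd74 had 587 and 528, then 196 and 195, and then 335 and 369, and was called higher than in the second pair. H2-Ab1 was called lower in Per/Nr1d_KO in both comparisons, with 186 and 179.9, then 800.2 and 804, and then 7.61 and 2.37.

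**Figure D5:**
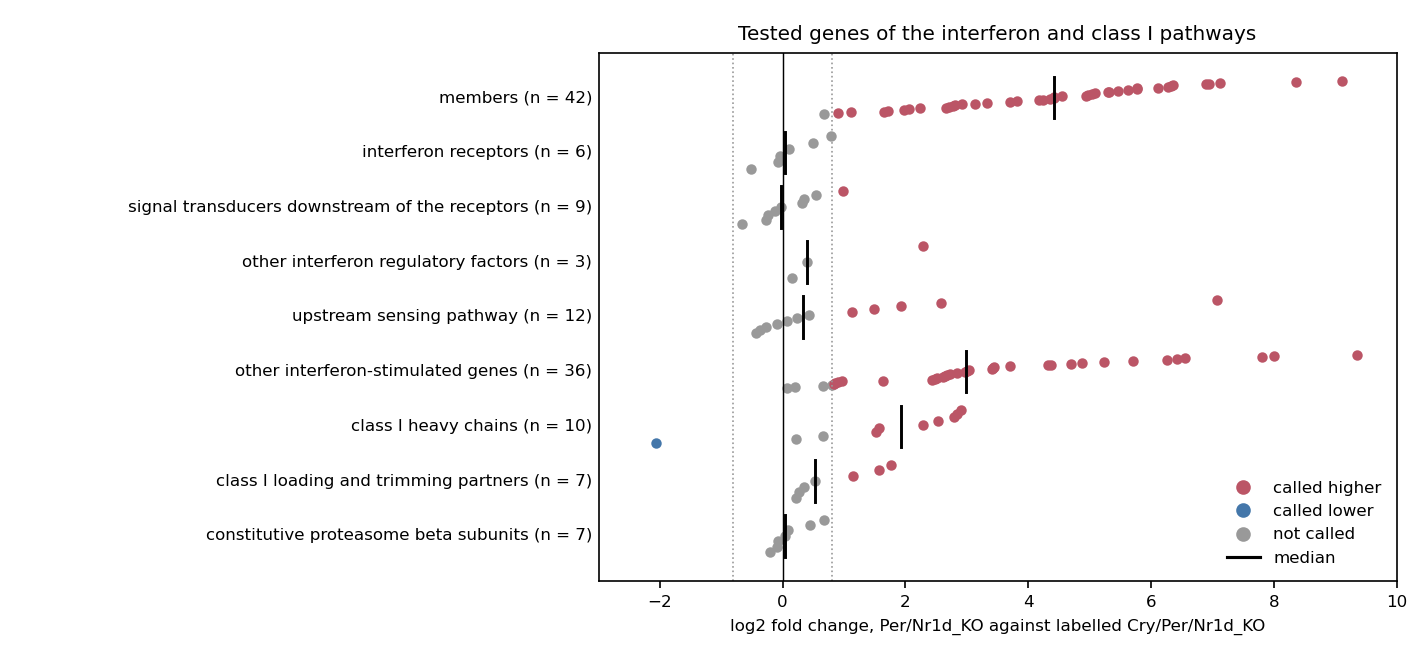
Log2 fold change of Per/Nr1d_KO against the pair labelled Cry/Per/Nr1d_KO for tested genes of the members and of 8 other lists, with red for called higher, blue for called lower, grey for not called, black bars at the medians and dotted lines at the fold limit. Medians are 4.42 for the members, 2.99 for other interferon-stimulated genes, 1.93 for class I heavy chains (1.57 without Cd1d1, admitted only through Per/Nr1d_KO) and 0.03 for receptors and for constitutive proteasome subunits.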

How the data were processed

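RNA sequencing of 6 libraries, 2 for each of 3 MEF lines, was analysed. Cells were grown in 10% serum at 37 °C and 5% CO2. Per the study's methods and the submitters' processing notes, the authors made poly-A selected, strand-marking single-end libraries, aligned them to mm10 with STAR and counted reads per Entrez gene with featureCounts. The deposited files hold raw counts per gene. The strand setting and the treatment of reads that match several genes are not given in the sources used here. The deposited tables of the authors' comparisons, made with DESeq2 1.22.2, hold fold changes and p-values and were not used.

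Symbols came from RefSeq (GRCm38.p6), which matched 92.99% of 27179 genes. Counts were scaled with TMM factors to the mean library (normalized counts). Genes with a mean of at least 100 (11934) were tested with edgeR 4.0.16 (quasi-likelihood test, 3 groups, no block, R 4.3.3). P-values were adjusted over all genes tested (Benjamini-Hochberg), and genes were called at an adjusted p under 0.05 and a log2 fold change above 0.81 in size, the mean and fold limits of the study. SE is the absolute log2 fold change divided by the square root of F. RPKM used GENCODE exon lengths. Counting intervals and floors (3 counts) cover counting error only. With 2 RNA preparations of each line, p-values measure the spread between preparations and not between clones. Each member called in at least 1 comparison, and 10 central members, are given in every library, and other genes where called (at most 4 with the largest change for a list) or central, with a few more chosen after their values were seen (Ifit2, Mx1, Oas1g, Ifi47, Erap1 and the other class I and proteasome genes). In simulated counts for Per/Nr1d_KO against Cry/Per/Nr1d_KO, all 200 changed genes of 11935 tested were recovered with 0 false calls. Alternatives were DESeq2 1.42.0, the study's threshold, other size factors, filters and fold limits, fits of fewer libraries, a replicate block and subtraction of chromosome medians. The result for 1 further gene of the pathway is not reported here. The members and the lists were chosen with earlier results of these data known.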

Additional observations from a re-analysis of the deposited data

How the results depend on the processing

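The member counts in the comparisons with Per/Nr1d_KO held under every alternative, with 40 to 42 called against the pair labelled Cry/Per/Nr1d_KO and 38 to 42 against the pair labelled Cry/Per_KO. Between the Cry/Per_KO-labelled and Cry/Per/Nr1d_KO-labelled pairs, 15 members were called, 7 under the study's threshold (adjusted p under 1e-22 in DESeq2) and 35 with no fold limit. Leaving out single libraries gave 14 to 20. Over all genes this comparison gave 2006 calls, and 1149 under the study's threshold, 3311 with a minimum mean of 10, 3808 with no filter and 9118 with no fold limit. For Per/Nr1d_KO against the pair labelled Cry/Per/Nr1d_KO, 2468 calls became 3912, 4576 and 9042 under the last 3 of these, and against the pair labelled Cry/Per_KO 3457 became 5590 with no filter and 9793 with no fold limit. A stricter threshold, more genes tested or no limit on the fold changes such counts by construction. Irf1 lost its call against the pair labelled Cry/Per/Nr1d_KO under a test against the fold limit itself (glmTreat), and Rsad2 its call against the pair labelled Cry/Per_KO under the study's threshold. Signs turned only in values that were not called: between the Cry/Per_KO-labelled and Cry/Per/Nr1d_KO-labelled pairs, Oasl1 became 0.31 without replicate 1 labelled Cry/Per/Nr1d_KO (-1.55 without replicate 2) and Ifi44 0.23 without replicate 2 (-0.82 without replicate 1), and with chromosome medians subtracted Ifi44 became 0.31 and Iigp1 -0.003. Ifit2 in Per/Nr1d_KO against the pair labelled Cry/Per_KO became -1e-04. That subtraction added Gbp3 and Gbp7 and removed Psmb9 between the first 2 lines, where medians over the 15 chromosomes with members ran from -0.65 (chromosome 3) to 0.35 (chromosome 12). The cause was not tested. Replicate numbers did not pair the samples (correlations of -0.19, -0.08 and -0.02), and a fit with the replicate number as a block gave 2002, 2468 and 3457 calls, with 15, 41 and 39 members and no member call changed. Members at 0 or a few counts limit the comparison of the first 2 lines.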
